A study of Mus musculus with 16 samples.

Results

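The genes described here are 30 type I interferon stimulated genes, measured in whole tumours of mice given vehicle or ADH-503. They were chosen by name, as the sensors, transcription factors and antiviral effectors that cells commonly switch on after interferon alpha or beta. All 30 were found on the array, out of 37554 gene or probe names, and all 30 were among the 30996 genes tested. Each gene was read from 1 probe, the probe with the highest mean over the 16 arrays in the authors' log2 table. That probe was well above background on 16 of 16 arrays for every member.

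Type I interferons bind the receptor made of Ifnar1 and Ifnar2, and the kinases Jak1 and Tyk2 then phosphorylate STAT proteins. Stat2 and Irf9 are subunits of ISGF3, a complex that binds the interferon stimulated response element (ISRE) in the promoters of its target genes. Many of the targets sense or destroy viral nucleic acid, and some of them, such as Irf7 and the RNA sensors, raise the output of interferon further. In tumours the program can be run by cancer cells, stroma and immune cells, and whole tumour RNA does not separate these sources.

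Tumours came from female C57BL/6 mice with an orthotopic pancreatic cancer model, in which the tumour grows in the pancreas. ADH-503 is a small molecule agonist of the integrin CD11b, which myeloid cells carry, and LA1 is its name in the titles of treated samples. There were 6 vehicle arrays, 5 arrays at 48 h and 5 arrays at 10 days of ADH-503, and the study asked which genes differ at these times. The vehicle samples carry no time, so the same 6 arrays served both comparisons with vehicle, and the cell line, dose and age of the mice are not given in the sources used here. The labels do not say that each sample came from a separate animal, so p-values measure the spread between these samples, which may be partly technical.

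Levels below are log2 signal relative to each array's 75th percentile, so a value of 0 lies at that percentile, and values of different genes are not set against each other. Between arrays, 74.9% to 81.2% of probes were well above background. Slide 1 held 1 vehicle array, 4 arrays at 48 h and 3 at 10 days, and slide 2 held 5, 1 and 2. Vehicle replicate 2 needs care: its title carries the ID number of 48 h replicate 5, while its description carries another number. It was kept as vehicle, as its treatment label says, and the members' fold changes against vehicle are also given without it. In bulk tumour RNA, fewer cells of a type and less RNA per cell cannot be told apart.

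No member differed between the groups past the threshold, and the members lay apart from array to array within each group. The mean over the 30 members was 0.88 ± 0.41 (SD, n = 6) on the vehicle arrays, with a lowest value of 0.13, a median of 0.93 and a highest value of 1.37. Without vehicle replicate 2 it was 1.03 ± 0.21 (SD, n = 5). At 48 h it was 0.59, 0.53, 1.01, 0.90 and 0.87 on replicates 1 to 5, a mean of 0.78 ± 0.21 (SD, n = 5). At 10 days it was 0.64, 1.21, 0.85, 0.98 and 0.98, a mean of 0.93 ± 0.21 (SD, n = 5). With that array left out the SD was 0.21 in each group. The 3 groups overlapped, and both the lowest and the highest array of the series were vehicle arrays, replicates 2 and 5.

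**Figure D1:**
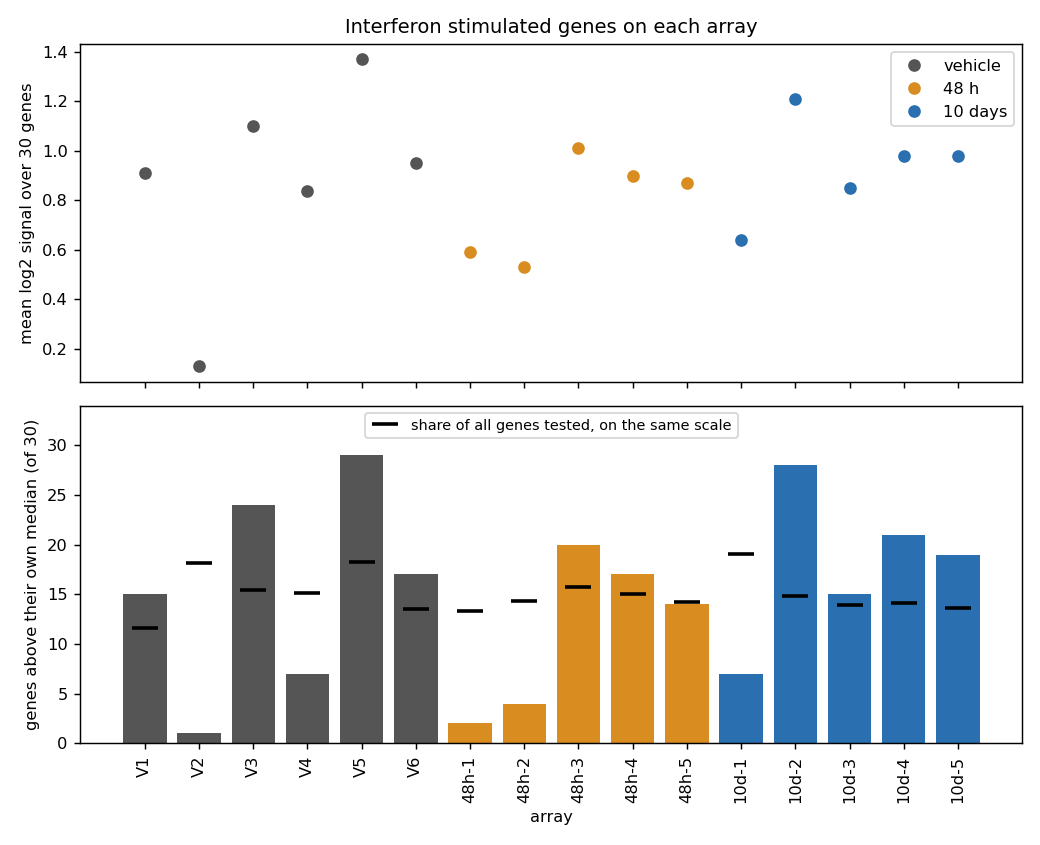
Upper panel: mean log2 signal over the 30 interferon stimulated genes on each of the 16 arrays, relative to the array's 75th percentile, with points coloured by group. Lower panel: how many of the 30 genes lay above their own median over the 16 arrays (bars), with black marks for the share of all genes tested on the same scale; vehicle replicate 2 had 1 gene of 30 above its median and vehicle replicate 5 had 29.

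At 48 h against vehicle, 0 of the 30 members passed limma's test after Benjamini-Hochberg adjustment over all genes, and 0 had an unadjusted p under 0.05. Over all genes, 0% were called and 2.55% had an unadjusted p under 0.05, which is 791 genes. Of the members, 23 were lower and 7 higher at 48 h, with a median log2 fold change of -0.058, beside -0.013 over all genes, of which 46.7% were higher. With arrays scaled to their median instead, 17 were lower and 13 higher, with a median of -0.011. That scaling moved all genes upward too: their median was then 0.034, and 58% were higher. Values ran from -0.39 for Mx2 to 0.16 for Oasl2. All 30 intervals of 95% confidence included 0, with half-widths from 0.26 for Zbp1 to 0.88 for Oas3 and a median of 0.48 on the log2 scale.

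At 10 days against vehicle, 0 of the 30 passed and 0 had an unadjusted p under 0.05, where 0% of all genes were called and limma's unadjusted p was under 0.05 for 3.54%, which is 1097 genes. Here 19 members were higher and 11 lower, with a median log2 fold change of 0.058, beside -0.0086 over all genes, of which 48% were higher. Values ran from -0.24 for Isg20 to 0.34 for Oas2, and all 30 intervals again included 0.

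The direct comparison of 10 days with 48 h gave 0 members past the threshold in limma's test, where 0% of all genes were called. Only Mx2 had an unadjusted p under 0.05, 1 of 30 members, beside 3.5% of all genes, which is 1084. Its difference did not pass the correction. At 10 days 24 members were higher than at 48 h and 6 lower, with a median log2 fold change of 0.11, beside 0.0052 over all genes, of which 51.2% were higher. Values ran from -0.12 for Oas1a to 0.52 for Mx2. Both comparisons with vehicle share the 6 vehicle arrays, and this one shares the treated arrays with each of them.

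**Figure D2:**
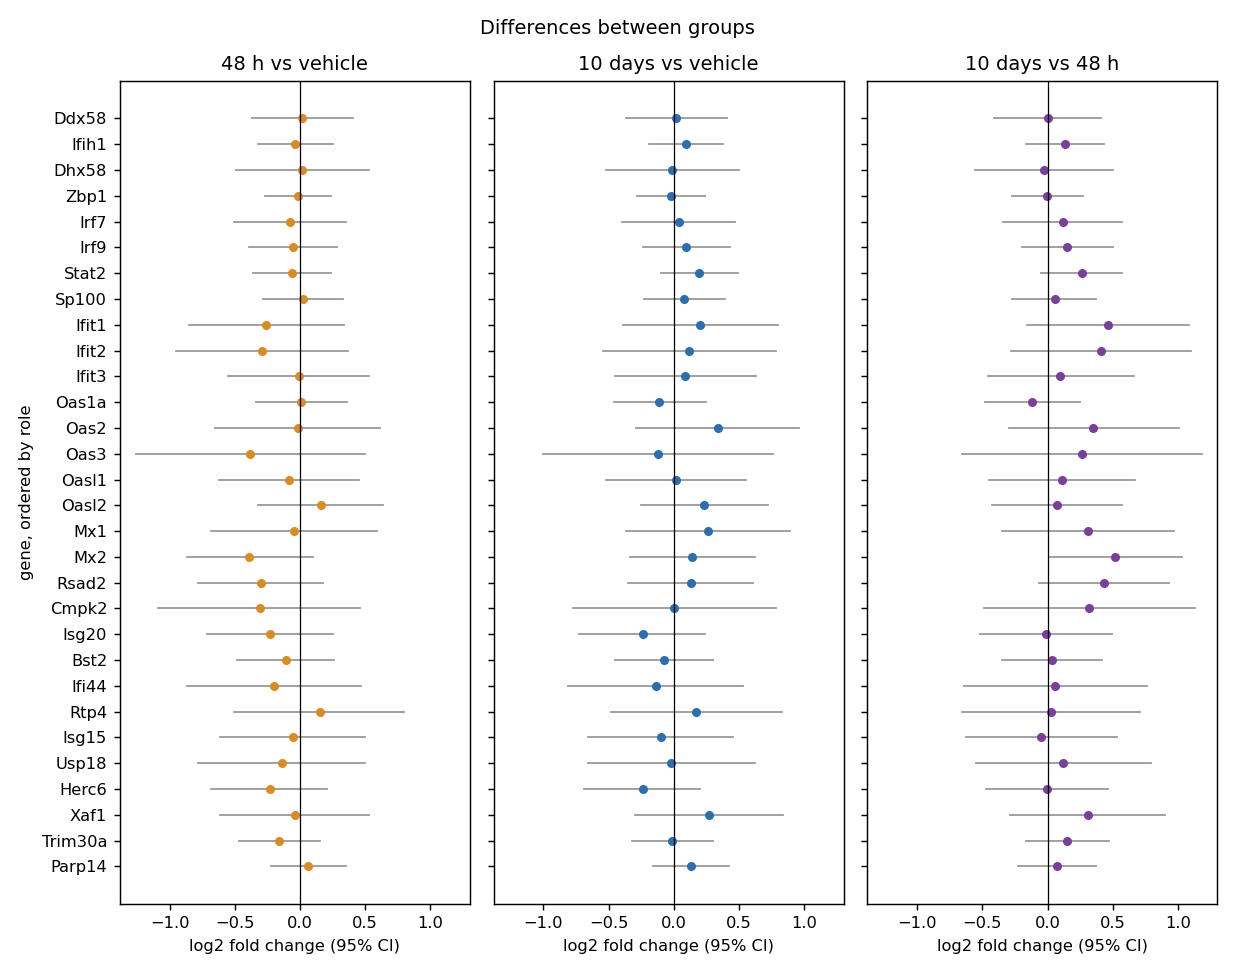
Log2 fold change of each of the 30 genes (points) with its 95% confidence interval from limma (lines), for each treated time against vehicle (left and middle panels) and for 10 days against 48 h (right panel). Every interval includes 0 except that of Mx2 between 10 days and 48 h, which did not pass the adjustment over all genes.

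The comparisons with vehicle turned on single vehicle arrays. Without vehicle replicate 2, all 30 members were lower at 48 h than on the other vehicle arrays, with a median of -0.22, and 3 had an unadjusted p under 0.05, though the smallest adjusted p in limma remained 1. Those 3 were Oas3 at -0.74 ± 0.29 (SE), Rsad2 at -0.45 ± 0.20 and Mx2 at -0.49 ± 0.23. Over all genes the median at 48 h was then 0.001, 50.2% were higher and limma's unadjusted p was under 0.05 for 2.39%. Without vehicle replicate 5 instead, 18 members were higher at 48 h and 12 lower, with a median of 0.014, where 50.4% of all genes were higher. Without vehicle replicate 3 the members' median was 0.0032, beside -0.015 over all genes. At 10 days the members' median was -0.087 without vehicle replicate 2, with 9 members higher and 21 lower. It was 0.14 without vehicle replicate 5, with 24 higher and 6 lower. Of all genes, 51.5% and 51.9% were higher at 10 days, in that order. Without vehicle replicates 2 and 5 together, the members' medians were -0.12 at 48 h and 0.018 at 10 days, beside 0.023 and 0.03 over all genes. The members' median at 10 days was -0.0082 without 10 day replicate 2 and 0.14 without 10 day replicate 1. Over all genes it was -0.0059 and -0.026.

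**Figure D3:**
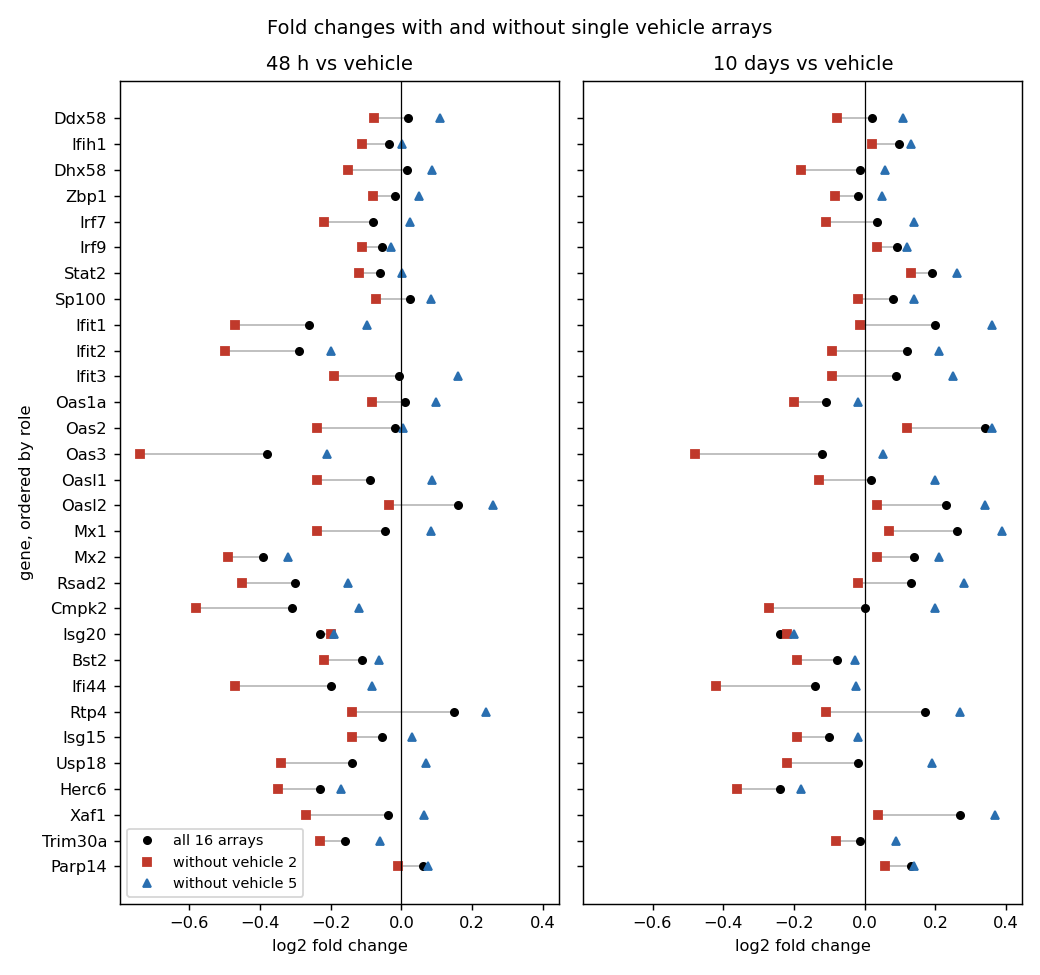
Log2 fold change against vehicle for each gene with all 16 arrays (black circles), without vehicle replicate 2 (red squares) and without vehicle replicate 5 (blue triangles), at 48 h and at 10 days. At 48 h all 30 squares lie below 0, while 18 of the 30 triangles lie above it. Of all genes tested, 50.2% were higher at 48 h without vehicle replicate 2 and 50.4% without vehicle replicate 5.

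Leaving out vehicle replicate 2 moved nearly every member's log2 fold change downward, and those of Oas3, Cmpk2, Ifi44 and Rtp4 by more than 0.25 at both times. Oas3 was then at -0.48 at 10 days, Cmpk2 at -0.58 at 48 h and -0.27 at 10 days, Ifi44 at -0.47 and -0.42, and Rtp4 at -0.14 and -0.11. Usp18 was at -0.34 and -0.22, Oasl1 at -0.24 and -0.13, Irf7 at -0.22 and -0.11, and Dhx58 at -0.15 and -0.18. Ifit1 was at -0.47 and -0.013, Ifit2 at -0.50 and -0.091, and Ifit3 at -0.19 and -0.091. All of these lay below 0 at both times on the remaining arrays. The 9 members that were still higher at 10 days were Oas2 at 0.12, Stat2 at 0.13, Mx1 at 0.069, Parp14 at 0.059, Xaf1 at 0.037, Oasl2 at 0.036, Irf9 at 0.035, Mx2 at 0.034 and Ifih1 at 0.021. At 48 h those were at -0.24, -0.12, -0.24, -0.0099, -0.27, -0.035, -0.11, -0.49 and -0.11, in that order. For the remaining genes the values at 48 h and 10 days were -0.35 and -0.36 for Herc6, -0.23 and -0.081 for Trim30a, -0.22 and -0.19 for Bst2, -0.2 and -0.22 for Isg20, and -0.14 and -0.19 for Isg15. Oas1a was at -0.083 and -0.2, Zbp1 at -0.081 and -0.083, Ddx58 at -0.078 and -0.077, Sp100 at -0.073 and -0.019, and Rsad2 at -0.019 at 10 days. No member passed in limma in either comparison.

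Slide was uneven between the groups, with 1 vehicle array on slide 1 and 1 array of 48 h on slide 2. With slide as a block in limma, the members' medians were -0.055 at 48 h, 0.083 at 10 days and 0.098 between the times, and 0 members passed in each. Within slide 1 the members' medians were -0.11 at 48 h, -0.03 at 10 days and 0.11 between the times. Over all genes they were 0.072, 0.13 and 0.041 there. Within slide 2 the members' medians were -0.0034, 0.12 and 0.042, and those over all genes -0.04, -0.05 and -0.019.

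Among the sensors, Ddx58 (RIG-I) and Ifih1 (MDA5) bind viral double-stranded RNA in the cytoplasm, Dhx58 (LGP2) modulates both, and Zbp1 binds Z-form nucleic acid and can trigger cell death. Of the 4, 2 were higher and 2 lower at each time against vehicle, and none passed. Zbp1 had the smallest spread of all members over the 16 arrays, with an SD of 0.17. Its lowest, median and highest values on the vehicle arrays were 1, 1.32 and 1.66. At 48 h Zbp1 was 1.19, 1.38, 1.18, 1.24 and 1.51, and at 10 days 1.12, 1.42, 1.23, 1.41 and 1.33. The treated arrays all lay inside the vehicle range, and the log2 fold changes of Zbp1 were -0.02 ± 0.12 (SE) at both times. Ddx58 gave 0.02 ± 0.18 at both times. Ifih1 was at -0.04 ± 0.14 and 0.10 ± 0.14, and Dhx58 at 0.02 ± 0.24 and -0.01 ± 0.24.

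Of the transcription factors, Stat2 and Irf9 are subunits of ISGF3, Irf7 is the factor that amplifies interferon alpha transcription, and Sp100 is a nuclear body protein that restrains viral genomes. Stat2 had the smallest unadjusted p of the members at 10 days. Its vehicle arrays had a lowest value of 1.37, a median of 1.73 and a highest value of 1.98. At 48 h Stat2 was 1.37, 1.78, 1.48, 1.99 and 1.42, and at 10 days 1.67, 1.93, 1.90, 1.77 and 2.05. At 48 h replicates 1, 3 and 5 lay below the vehicle median of Stat2 and replicate 4 just above its highest vehicle array, and its 10 day arrays overlapped both other groups. The log2 fold change was 0.19 ± 0.14 (SE) at 10 days against vehicle (limma adjusted p = 1) and 0.26 ± 0.15 against 48 h (adjusted p = 1).

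Irf7 was lowest on vehicle replicate 2, at 2.53, and highest on vehicle replicate 5, at 3.77, with a vehicle median of 3.21. At 48 h it was 3.01, 2.97, 3.49, 3.18 and 3.24, and at 10 days 2.89, 3.68, 3.18, 3.25 and 3.46. All treated arrays fell between those 2 vehicle arrays, and Irf7 gave log2 fold changes of -0.08 ± 0.20 (SE) at 48 h and 0.04 ± 0.20 at 10 days. A further Irf7 probe gave -0.13 at 10 days, the opposite sign. Irf9 was at -0.05 ± 0.16 and 0.09 ± 0.16, and Sp100 at 0.03 ± 0.14 and 0.08 ± 0.14. The other Sp100 probe gave -0.68 and -0.39, so its probes disagreed in sign at both times.

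Among the IFIT proteins, Ifit1 binds viral RNA that lacks host cap marks and blocks its translation. On all 16 arrays the 3 IFIT genes had a median log2 fold change of -0.26 at 48 h and 0.12 at 10 days. None passed in either comparison. Their signs were not settled: Ifit3 at 48 h was 0.039 with arrays scaled to their median and 0.062 with slide as a block. It was 0.16 without vehicle replicate 5, and 0.066 and 0.031 within slides 1 and 2. Ifit2 at 10 days was -0.42 within slide 1, and without vehicle replicate 2 all 3 were below 0 at 10 days. Ifit1 had a lowest value of -2.46, a median of -1.31 and a highest value of -0.59 on the vehicle arrays. At 48 h Ifit1 was -1.83, -2, -0.97, -1.62 and -1.78, and at 10 days -1.36, -0.75, -1.59, -1.06 and -1.15. Replicate 3 stood above the other 48 h arrays, and the 48 h and 10 day values of Ifit1 overlapped. The log2 fold change between 10 days and 48 h was 0.46 ± 0.29 (SE, limma adjusted p = 1). Ifit2 differed by -0.29 ± 0.31 and 0.12 ± 0.31 from vehicle, and Ifit3 by -0.01 ± 0.25 and 0.09 ± 0.25.

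**Figure D4:**
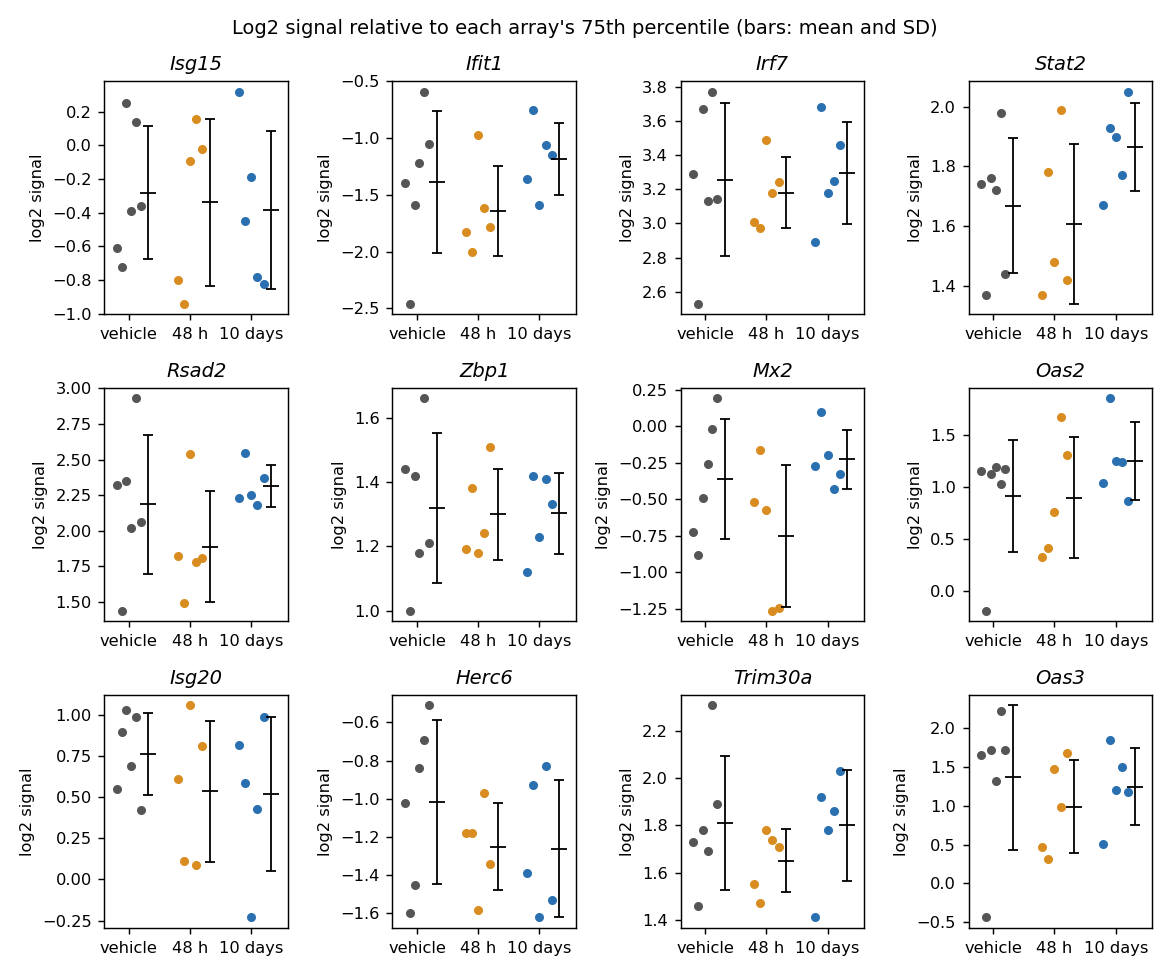
Log2 signal relative to each array's 75th percentile for 12 of the genes, with 1 point per array (6 vehicle, 5 at 48 h, 5 at 10 days) and the mean ± SD of each group beside the points. The groups overlap in every panel. Vehicle replicate 2 lies below all other arrays for Ifit1, Irf7, Rsad2, Zbp1, Oas2 and Oas3. For Stat2 it is lowest together with 48 h replicate 1, both at 1.37.

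The 2'-5' oligoadenylate synthetases Oas1a, Oas2 and Oas3 make the messenger that switches on RNase L, and Oasl1 and Oasl2 are related proteins. Of the members, Oas2 had the largest positive log2 fold change at 10 days. Its vehicle arrays had a lowest value of -0.19, a median of 1.14 and a highest value of 1.19. At 48 h Oas2 was 0.32, 0.41, 0.76, 1.67 and 1.31, and at 10 days 1.04, 1.85, 1.25, 1.24 and 0.86. The other 5 vehicle arrays lay close together, and the 48 h arrays spread around them. The log2 fold change of Oas2 at 10 days was 0.34 ± 0.29 (SE, limma adjusted p = 1) and it was 0.12 without vehicle replicate 2.

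Oas3 had the largest spread of the members, with an SD of 0.69 over the 16 arrays. On the vehicle arrays Oas3 ran from -0.44 on replicate 2 to 2.23 on replicate 5 around a median of 1.68. At 48 h Oas3 was 0.47, 0.31, 1.48, 0.99 and 1.68, and at 10 days 0.51, 1.85, 1.2, 1.5 and 1.18. All treated arrays lay within the vehicle range, and the log2 fold changes were -0.38 ± 0.41 (SE) at 48 h and -0.12 ± 0.41 at 10 days. Oasl2 was at 0.16 ± 0.23 and 0.23 ± 0.23, and Oasl1 at -0.09 ± 0.25 and 0.02 ± 0.25. Oas1a was at 0.01 ± 0.17 and -0.11 ± 0.17. The RefSeq entries annotated to its probe match both Oas1a and Oas1g, so this probe may read both. Oas1g has a probe of its own in the list of further interferon stimulated genes below.

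Of the 8 other effectors, Mx1 and Mx2 belong to the Mx family of dynamin-like GTPases. RNA levels do not show whether their proteins work in these mice. Rsad2 (viperin) makes a chain-terminating nucleotide, and Cmpk2 lies beside it in the genome. Among these 8 genes 7 were lower and 1 higher at 48 h against vehicle, and 5 were higher and 3 lower at 10 days. Mx2 had the smallest unadjusted p of any member, between 10 days and 48 h. Its vehicle arrays had a lowest value of -0.88, a median of -0.38 and a highest value of 0.19. At 48 h Mx2 was -0.52, -0.16, -0.57, -1.26 and -1.24, and at 10 days -0.27, 0.10, -0.20, -0.43 and -0.33. Replicates 4 and 5 of the 48 h group lay below every other array, and 48 h replicate 2 lay above all 10 day arrays but replicate 2. The log2 fold change was 0.52 ± 0.24 (SE) between 10 days and 48 h (limma adjusted p = 1) and -0.39 ± 0.23 at 48 h against vehicle (adjusted p = 1). Against vehicle Mx2 was at 0.14 ± 0.23 at 10 days. Within slide 1 the difference between the times was 0.5, and within slide 2, with 1 array at 48 h, it was 0.86. A dimmer Mx2 probe, above background on 9 arrays, gave 0.49 between the times but -0.29 at 10 days against vehicle, and its values correlated with those of the main probe at r = -0.43 over the 16 arrays.

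Rsad2 had a lowest value of 1.44, a median of 2.19 and a highest value of 2.93 on the vehicle arrays. At 48 h it was 1.82, 1.49, 2.54, 1.78 and 1.81, and at 10 days 2.23, 2.55, 2.25, 2.18 and 2.37. In 4 of the 5 arrays at 48 h Rsad2 lay below all 10 day arrays, and 48 h replicate 3 lay above 4 of them. The difference between the times was 0.43 ± 0.23 (SE, limma adjusted p = 1), and its other probe gave 0.72. With the authors' log2 table the unadjusted limma p of Rsad2 was under 0.05, with a difference of 0.47 ± 0.22 (SE) and an adjusted p of 1.

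Isg20 is an exonuclease that degrades viral RNA. Isg20 had a lowest value of 0.42, a median of 0.80 and a highest value of 1.03 on the vehicle arrays. At 48 h Isg20 was 0.61, 0.11, 1.06, 0.09 and 0.81, and at 10 days 0.82, 0.59, -0.23, 0.43 and 0.99. Replicates 2 and 4 at 48 h and replicate 3 at 10 days lay below all vehicle arrays, and the rest overlapped them. Isg20 gave -0.23 ± 0.23 (SE) at 48 h and -0.24 ± 0.23 at 10 days (limma adjusted p = 1). Of the other effectors, Cmpk2 was at -0.31 ± 0.36 and 0.00 ± 0.36, and Mx1 at -0.05 ± 0.30 and 0.26 ± 0.30. Bst2 (tetherin), which holds budding virus at the cell surface, was at -0.11 ± 0.17 and -0.08 ± 0.17. Ifi44 was at -0.20 ± 0.32 and -0.14 ± 0.32, and Rtp4, a chaperone of receptors, at 0.15 ± 0.31 and 0.17 ± 0.31.

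Isg15 is a ubiquitin-like protein that is joined to other proteins by ligases such as Herc6 and removed by Usp18, which also shuts off the interferon receptor. On all 16 arrays the 3 genes had a median log2 fold change of -0.14 at 48 h and -0.1 at 10 days, and none passed. The signs of Usp18 and Isg15 turned under other settings. Usp18 was 0.03 and 0.099 with slide as a block, 0.071 and 0.19 without vehicle replicate 5, and 0.0011 at 10 days with arrays scaled to their median. Isg15 at 48 h was 0.03 without vehicle replicate 5, and 0.19 and 0.2 within slides 1 and 2. Isg15 had a lowest value of -0.72, a median of -0.38 and a highest value of 0.25 on the vehicle arrays. At 48 h Isg15 was -0.80, -0.94, -0.09, 0.16 and -0.02, and at 10 days 0.32, -0.45, -0.19, -0.78 and -0.82. Each treated group held arrays below all vehicle arrays and arrays near or above the top of the vehicle range. Isg15 gave -0.05 ± 0.26 (SE) and -0.10 ± 0.26, and within slides its difference at 10 days was 0.5 on slide 1 and -0.58 on slide 2.

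Herc6 had a lowest value of -1.60, a median of -0.93 and a highest value of -0.51 on the vehicle arrays. At 48 h Herc6 was -1.18, -1.18, -1.58, -0.97 and -1.34, and at 10 days -1.39, -0.93, -1.62, -0.83 and -1.53. Vehicle arrays spanned nearly the whole range of both treated groups, and only 10 day replicate 3 lay below it. Herc6 was at -0.23 ± 0.21 (SE, limma adjusted p = 1) and -0.24 ± 0.21 (adjusted p = 1). Usp18 was at -0.14 ± 0.30 and -0.02 ± 0.30.

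The remaining 3 genes regulate other pathways: Xaf1 promotes apoptosis, Trim30a dampens inflammatory signalling, and Parp14 is an ADP-ribosyltransferase. Trim30a had a lowest value of 1.46, a median of 1.75 and a highest value of 2.31 on the vehicle arrays. At 48 h Trim30a was 1.55, 1.47, 1.78, 1.74 and 1.71, and at 10 days 1.41, 1.92, 1.78, 1.86 and 2.03. All 48 h arrays lay within the vehicle range, in its lower part. Trim30a gave -0.16 ± 0.15 (SE, limma adjusted p = 1) at 48 h and -0.01 ± 0.15 at 10 days. Of its 2 further probes, 1 gave 0.20 and 0.27, and correlated with the main probe at r = 0.03 over the 16 arrays. The other gave -0.07 and 0.01, at r = 0.93. Xaf1 was at -0.04 ± 0.27 and 0.27 ± 0.27, and Parp14 at 0.06 ± 0.13 and 0.13 ± 0.13. A dimmer Xaf1 probe, above background on 9 arrays, gave 0.09 and -0.80 and correlated with the main probe at r = -0.56. Another Xaf1 probe gave 0.06 and 0.12, and the other Parp14 probe -0.07 and 0.17. Signs also differed between probes, at 48 h, 10 days or both, for Oasl1, Ddx58, Zbp1, Irf9, Ifi44 and Dhx58. For Ifi44 and Dhx58 the other probe was above background on 3 and 2 arrays.

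The members tended to be high or low together on an array. Vehicle replicate 2 was the lowest of the 16 arrays for 23 of the 30 members (76.7%), beside 3.34% of all genes tested, and only Isg20 lay above its own median there. On the same array 60.6% of all genes lay above their median. Vehicle replicate 5 was the highest array for 14 members (46.7%), beside 9.34% of all genes. There 29 of the 30 lay above their median, beside 60.7% of all genes. On 10 day replicate 2 the count was 28 of 30, where 49.3% of all genes lay above their median. On 48 h replicates 1 and 2 it was 2 and 4, beside 44.3% and 47.9% of all genes. These arrays were singled out after their values were seen, and the counts are descriptions with no test.

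**Figure D5:**
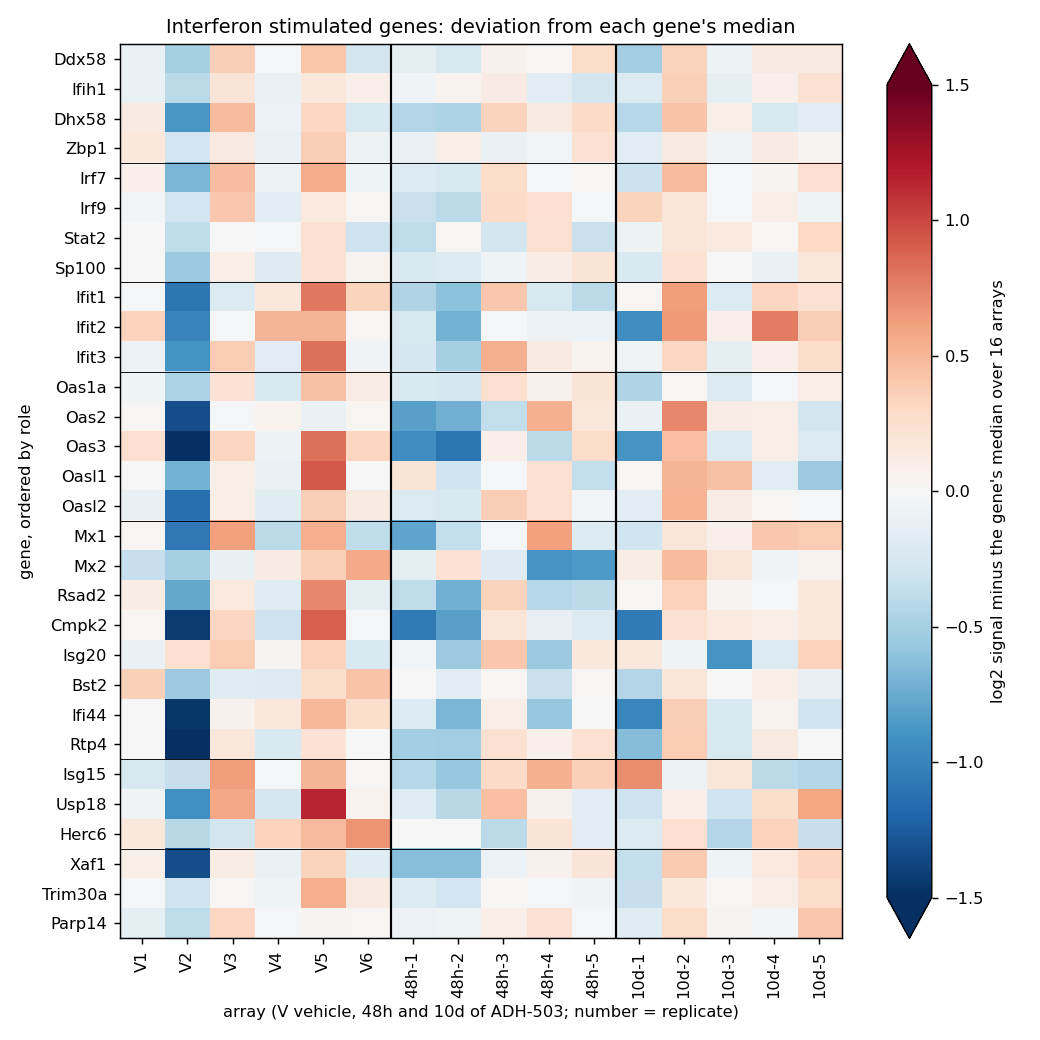
Log2 signal of each of the 30 genes minus that gene's median over the 16 arrays (colour, limited to 1.5 in each direction), with arrays in columns by group and genes in rows by role. Vehicle replicate 2 is low for all genes but Isg20, and vehicle replicate 5 and 10 day replicate 2 are high for 29 and 28 of the 30. Of all genes tested, 60.6%, 60.7% and 49.3% lay above their median on these arrays, in that order.

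From vehicle replicate 2 to vehicle replicate 5, Oas3 went from -0.44 to 2.23, Cmpk2 from -2.70 to -0.37 and Usp18 from 0.31 to 2.38. At the other end Isg20 went from 0.90 to 0.99, Irf9 from 1.73 to 2.16 and Parp14 from 1.53 to 1.96. Further probes of the members read the same genes on the same arrays, so they are not separate evidence. Of the 18 that were above background on 16 arrays, 2 lay above their median on vehicle replicate 2. The count was 16 on vehicle replicate 5 and 18 on 10 day replicate 2. Of all genes, 60.6%, 60.7% and 49.3% lay above their median on these arrays, in that order. Vehicle replicate 2 was the lowest array for 7 of the 18 probes (38.9%), beside 3.34% of all genes. Vehicle replicate 5 was the highest for 6 (33.3%), beside 9.34%. The median SD over the 16 arrays was 0.39 for the members and 0.32 for all genes tested, and 20 members lay above the latter.

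The promoters of several members hold the ISRE core, and stretches of 6 of them are printed here in the direction of transcription. The ISRE core on either strand is in capitals. The core searched was GAAA, any 2 bases, GAAA, and copies could share bases, as they do for Isg15 and Oas1a. Sequences and starts are from RefSeq on build GRCm38.p6, and each stretch lies upstream of the annotated start.
Ifit1: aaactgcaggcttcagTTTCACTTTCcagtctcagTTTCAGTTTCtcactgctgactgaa
Isg15: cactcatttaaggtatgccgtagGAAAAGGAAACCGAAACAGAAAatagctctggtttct
Oas1a: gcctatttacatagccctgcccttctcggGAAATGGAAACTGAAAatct
Oas3: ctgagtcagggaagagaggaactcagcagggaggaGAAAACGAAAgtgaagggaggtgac
Rsad2: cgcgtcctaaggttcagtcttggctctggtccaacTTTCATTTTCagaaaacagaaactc
Stat2: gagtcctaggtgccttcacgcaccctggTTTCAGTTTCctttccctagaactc

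The Ifit1 stretch is chr19:34640769-34640828 on the plus strand and ends 61 bases before the start, and the Isg15 stretch is chr4:156200860-156200919 on the minus strand and ends 42 bases before it. The Oas1a stretch is chr5:120907526-120907574 (minus strand), the Oas3 stretch chr5:120777710-120777769 (minus strand) and the Rsad2 stretch chr12:26456548-26456607 (minus strand). The Stat2 stretch is chr10:128270248-128270300 on the plus strand. Isg15 held 3 overlapping copies of the core, Ifit1 held 2 separate copies on the opposite strand, and Oas3, Rsad2 and Stat2 held 1 each.

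RefSeq promoters, from 250 bases before the start to 50 after it, were at hand for 22 of the 30 members. Of these, 11 (50%) held the ISRE core on either strand, beside 3.99% of the 27025 genes in the table. The others with a match were Ifit3, Bst2, Trim30a, Ddx58 and Ifih1, and the matches of Ddx58 and Ifih1 lay after the start. The gamma activated site searched was TTC, any 3 bases, GAA, which reads the same on both strands. It stood in 4 of the 22 (18.2%), beside 9.55% of all genes: Ifit2, Isg20, Oas1a and Bst2, and in Bst2 it overlapped an ISRE match. Members with and without the ISRE core had a median SD over the arrays of 0.28 and 0.38, and 8 of 11 in each set were lowest on vehicle replicate 2. A match is a run of letters in this window and not a measured binding site.

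Upstream of the members, 0 of the 16 interferon ligand genes tested passed in either direction at either time in limma's test, where 0 and 1 had an unadjusted p under 0.05 at 48 h and 10 days. The probe of Ifnb1, which encodes interferon beta, was well above background on 9 of 16 arrays, and that of Ifna4 on 0. The smallest unadjusted p values belonged to interferon alpha genes, which resemble each other closely, so their probes may not separate them. Ifna7 was at -0.75 ± 0.30 (SE) at 10 days (limma adjusted p = 1), from a probe above background on 5 vehicle arrays, 3 at 48 h and 2 at 10 days. Ifna16 was at 0.75 ± 0.35 at 10 days, from a probe above background on 3 of 6 vehicle arrays and 5 of 5 at 10 days, and Ifna13 at 0.48 ± 0.25, from a probe above it on all of them.

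Of the 18 receptor and JAK-STAT genes, 0 passed in either direction at 48 h or 10 days, and for 0 of them was limma's unadjusted p under 0.05. The genes with the smallest p were Ifnlr1, the interferon lambda receptor chain, at 0.84 ± 0.42 (SE) at 10 days, and Ifnar2 at 0.18 ± 0.10 at 10 days. Ifnlr1 was above background on 3 vehicle arrays. Of the 20 nucleic acid sensing genes, 0 passed, and limma's unadjusted p was under 0.05 for 0 at 48 h and 1 at 10 days. That was Tlr3, the endosomal receptor for double-stranded RNA, at 0.28 ± 0.13 (limma adjusted p = 1). Mb21d1, which encodes the DNA sensor cGAS, was at 0.32 ± 0.17, and Tlr7, a receptor for single-stranded RNA, at 0.51 ± 0.28.

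A list of 46 further interferon stimulated genes, 41 of them tested, also had 0 past the threshold in either direction, with 0 and 1 at an unadjusted p under 0.05 in limma at 48 h and 10 days. Slfn8 was at 0.24 ± 0.11 (SE) at 10 days (limma adjusted p = 1), Apol9a at 0.28 ± 0.15 at 10 days, and Trim21, a cytosolic antibody receptor, at 0.36 ± 0.20 at 48 h. At 48 h 24 of the 41 were higher and 17 lower, and at 10 days 23 were higher and 18 lower. Of all genes, 46.7% and 48% were higher. On vehicle replicate 2 the further genes were lowest in 12 of 41 cases (29.3%) and above their median in 9, and on vehicle replicate 5 they were above it in 36. Of all genes, 3.34% were lowest on vehicle replicate 2. The shares above their median were 60.6% there and 60.7% on vehicle replicate 5.

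Of 13 cell type marker lists measured on the same arrays, none held a gene past the threshold in any comparison by limma. B cell markers (5 of 5 above background on 16 arrays) averaged 0.09 to 2.11 on the vehicle arrays, 0.37 to 2.94 at 48 h and 1.02 to 1.73 at 10 days. The 4 arrays with the lowest mean over the members were also the 4 lowest for B cell markers. These were vehicle replicate 2, 48 h replicates 2 and 1 and 10 day replicate 1, at 0.09, 0.37, 0.54 and 1.02. The high ends did not match. Vehicle replicate 5, highest for the members at 1.37, was at 1.31 for B cell markers. The highest array for B cell markers, 48 h replicate 5 at 2.94, had a mean over the members of 0.87. This list was singled out of the 13 after its values were seen. Ductal and tumour epithelium markers (10 of 10) averaged -0.46 to 1.60 on the vehicle arrays, -1.70 to 1.46 at 48 h and -1.37 to 0.62 at 10 days. Their highest array was vehicle replicate 2, and vehicle replicate 5 was at -0.45. Acinar markers (11 of 12) averaged 0.31 to 1.92 on the vehicle arrays, with the 0.31 on replicate 5, 1.79 to 2.24 at 48 h and 0.13 to 2.28 at 10 days. The part of these cell types in the members' levels was not tested.

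Plasmacytoid dendritic cells are a main source of interferon alpha. Their markers (8 of 8 above background on 16 arrays) averaged -0.12 to 0.21 on the vehicle arrays, -0.02 to 0.20 at 48 h and -0.13 to 0.19 at 10 days. Macrophage markers (9 of 10 on the array, 9 above background on 16 arrays) averaged 3.42 to 3.71, 3.61 to 3.78 and 3.59 to 3.75. On vehicle replicates 2 and 5 they averaged 3.54 and 3.61, and the plasmacytoid dendritic cell markers 0.12 and -0.12. Over all 16 arrays the plasmacytoid dendritic cell markers averaged -0.13 to 0.21, and vehicle replicate 5 was their lowest vehicle array. The part of both cell types was not tested.

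Among the other lists, erythroid markers (4 of 6 above background on 16 arrays) averaged -2.92 to 1.04 on the vehicle arrays, -4.50 to -1.30 at 48 h and -4.59 to -2.32 at 10 days. Neutrophil markers (9 of 9) averaged -0.33 to 1.15, -0.47 to 1.13 and -1.24 to 0.38. Endothelial markers (4 of 6) averaged -2.28 to -1.67, -2.75 to -2.13 and -2.59 to -1.93, and vehicle replicate 2 was their highest array. The groups overlapped for each of these lists. Monocyte (6 of 7), T cell (7 of 8) and NK cell (6 of 6) markers averaged 1.44 to 2.04, -0.94 to 0.28 and -1.73 to -0.94 over all 16 arrays. Fibroblast (6 of 8) and islet (4 of 6) markers averaged -2.85 to -0.50 and -2.30 to 0.42. The part of these cell types in the members' levels was not tested either.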

How the data were processed

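Total RNA of 16 tumour samples was amplified, labelled with Cy5 and read on 1-colour Agilent arrays, per the labels' protocols. The deposited scanner files hold each spot's processed signal, which per the file headers is a linear intensity after background subtraction, with flags (a yes or no per spot, another kind of column) for outliers and for signal well above background. The submitters' processing notes name Agilent Feature Extraction 11.5.1.1. A table of log2 values from the authors is quantile-normalized: its sorted columns differ by at most 0.0043. How the authors tested is not given in the sources used here.

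From the intensities, log2 signal was averaged over the spots of a probe, without 3671 control spots per array and 1692 outlier values, and each array's 75th percentile was subtracted. A gene was read from the probe with the highest mean in the authors' table and tested if well above background on 5 or more of 16 arrays. Groups were compared in limma 3.58.1 under R 4.3.3 (lmFit, 3 groups, robust eBayes, 2-sided, Benjamini-Hochberg over 30996 genes, threshold 0.05), checked on simulated data. Values per array are written out for up to 4 members with the smallest p in each comparison and for Isg15, Ifit1, Irf7, Stat2, Rsad2 and Zbp1; Oas3, shown for its spread, was added after its values were seen. Up to 3 genes with the smallest p are named per further list, leaving out 1 gene that is not reported here. The members and lists were chosen with earlier results of these data known. Alternatives were the authors' table, normexp background correction with an offset of 50, scaling to the median, no filter, slide as a block and within slides, an intensity trend, all probes of a gene, and leaving out arrays. The number of arrays limits the precision.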

Additional observations from a re-analysis of the deposited data

Results flagged for a closer look

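Each gene's values were screened within each group for 1 array whose gap to its neighbour, as a share of the group's range, exceeded Dixon's 95% critical value, as was the mean over the members. This marked 8 of 93 sets of values. Chance marks about 1 in 20 sets when these are independent. The sets here share the same arrays and tended to move together, so the count cannot be set against that rate. Vehicle replicate 2 was the array in 7 of the 8. There Ifit2 was at -3.87 with the next vehicle array at -2.88, Ifi44 at -3.33 with the next at -1.87, and Oas2 at -0.19 with the next at 1.03. Oas3 was at -0.44 with the next at 1.32, Oasl2 at 0.81 with the next at 1.76, Xaf1 at -0.42 with the next at 0.73, and Rtp4 at 0.83 with the next at 2.27. At 10 days Cmpk2 was at -2.32 on replicate 1 with the next array at -1.18. The mean over the members was not marked in any group. For 0 of the 30 members did all 48 h arrays and all 10 day arrays lie on opposite sides of the vehicle mean.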

How the results depend on the processing

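No paired analysis was possible because replicate numbers follow the order of the samples and pair none of them. In all 25 alternatives that gave a test, 0 members passed the threshold in each of the 3 comparisons, and no member changed sign with a value beyond its standard error both before and after. Over all genes the count past the threshold moved from 0 to 1 in limma in these cases. Without the filter on dim probes it was 1 at 48 h and 1 at 10 days, both times 4930448H16Rik, above background on 4 arrays. When single arrays were left out it ran from 0 to 1 in each comparison: A_66_P104043 without vehicle replicate 1 (48 h against vehicle and 10 days against 48 h), Dyx1c1 without vehicle replicate 5 (the same comparisons), and A630052C17Rik without 10 day replicate 4 (10 days against vehicle). Without vehicle replicates 2 and 5 together, chosen after seeing the data, it was 1 at 48 h and 1 between the times, again Dyx1c1. These genes were named after their values were seen, and the cause was not tested.

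When single arrays were left out, the members' median ran from -0.22 to 0.014 at 48 h, from -0.087 to 0.14 at 10 days and from 0.033 to 0.18 between the times. With both arrays that share an ID number left out it was -0.23, -0.087 and 0.11. Scaling to the median gave -0.011, 0.077 and 0.083, with 13 members higher and 17 lower at 48 h, where 58% of all genes were higher. The authors' table gave -0.081, 0.07 and 0.13, and the mean of all probes of a gene -0.11, 0.034 and 0.13. Under 4 other sources or scalings of the values, 20 to 24 members were lowest on vehicle replicate 2, 11 to 14 highest on vehicle replicate 5, and 27 or 28 above their median on 10 day replicate 2.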
